A study of Homo sapiens with 2 samples.

Results

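The regions around 4 genes that steer B cells between the germinal centre and the plasma cell were examined: BCL6, PRDM1, BACH2 and XBP1. A region belonged to a gene if its midpoint lay within 100 kb of the gene's span in hg19, and 28 of the 23612 regions in the list met this rule. The BACH2 locus held 12 of them, the PRDM1 locus 11, the BCL6 locus 3 and the XBP1 locus 2. The data are ATAC-seq, in which a transposase cuts and tags open DNA, from GM12878. This is an established B lymphoblastoid line, made by transforming B cells with Epstein-Barr virus, and it was not treated. Separate cultures of 50000 cells gave 1 library each, 2 in all, and these form 1 group. The authors deposited 1 list for both, with a position and a score per region and no value per culture. No test over samples was therefore possible, the depth is unknown, and every value below is a description of this list. The list holds no expression values, so the labelled cell type could not be checked against markers.

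In B cells that enter the germinal centre, BCL6, a zinc finger repressor, keeps the cells there and holds back plasma cell genes. BACH2, a repressor with a leucine zipper that pairs with small Maf proteins, also holds back PRDM1. PRDM1 encodes Blimp-1, a zinc finger repressor that shuts off the B cell programme in plasma cells. XBP1 is a leucine zipper factor of the unfolded protein response, and it builds the secretory apparatus of plasma cells. BCL6 and PRDM1 are known to repress each other, so the cell tends to one state or the other. Virus-transformed lymphoblastoid lines resemble activated B cells.

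The list placed an accessible region on the start of BCL6 and of PRDM1 and none on the start of BACH2 or XBP1. The starts are the span starts for the plus-strand gene PRDM1 and the span ends for the other genes, all on the minus strand. The sequences just upstream of the RefSeq starts of these genes are shown here, since the data bear on the genes through this contrast. With regions at the highest score only, PRDM1 alone keeps a region at its start. The sequences come from the RefSeq promoter table of GRCh38.p14, matched by symbol. They are read along each gene from 250 bases upstream to the last base before the RefSeq start. The table holds promoters for 4 of 4 genes. Where it lists more than 1 start, the one farthest upstream is used. Counted from that start, the gene's length in the table differs from the length in hg19 by 257 bases for BCL6, 17 for PRDM1, 65 for BACH2 and 3 for XBP1. At which end of the gene these bases lie was not determined, as no start was carried between builds. For BCL6 they exceed the 250 bases printed, so its sequence may lie past the hg19 start. Bases in the sequences are counted from the RefSeq starts. Capitals mark exact matches to the motifs named after the sequences, without GC boxes.
BCL6: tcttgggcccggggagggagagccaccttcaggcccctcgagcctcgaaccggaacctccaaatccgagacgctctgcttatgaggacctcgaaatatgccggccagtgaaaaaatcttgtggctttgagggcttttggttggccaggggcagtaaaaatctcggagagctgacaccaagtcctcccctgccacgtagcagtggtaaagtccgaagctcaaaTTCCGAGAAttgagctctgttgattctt
PRDM1: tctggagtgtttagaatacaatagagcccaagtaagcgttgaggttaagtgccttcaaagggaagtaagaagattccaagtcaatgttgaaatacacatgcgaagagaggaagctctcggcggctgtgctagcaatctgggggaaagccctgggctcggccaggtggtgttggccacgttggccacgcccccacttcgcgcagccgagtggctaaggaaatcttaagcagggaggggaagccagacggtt
BACH2: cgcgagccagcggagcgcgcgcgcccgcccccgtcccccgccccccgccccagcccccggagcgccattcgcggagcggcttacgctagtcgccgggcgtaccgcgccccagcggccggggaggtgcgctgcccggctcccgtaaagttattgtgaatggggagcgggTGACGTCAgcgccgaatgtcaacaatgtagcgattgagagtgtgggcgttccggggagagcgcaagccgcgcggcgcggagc
XBP1: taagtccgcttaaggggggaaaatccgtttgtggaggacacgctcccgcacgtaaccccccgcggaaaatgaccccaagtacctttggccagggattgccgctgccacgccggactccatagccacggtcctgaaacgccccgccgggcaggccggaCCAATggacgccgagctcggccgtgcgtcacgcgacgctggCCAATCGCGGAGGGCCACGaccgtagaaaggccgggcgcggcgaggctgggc

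The capitals in the BCL6 promoter mark a STAT motif, TTCNNNGAA, at bases 28 to 20 before the start. STAT factors carry cytokine signals to the nucleus. The same motif also matched across the BCL6 start, from base 5 before it to base 4 of the gene, and at bases 11 to 19 and 37 to 45 of the gene. These 3 matches are not marked, as they end beyond the printed bases. In the BACH2 promoter they mark a cyclic AMP response element, TGACGTCA, the letters bound by CREB and ATF proteins, at bases 82 to 75 before the start. In the XBP1 promoter they mark 2 CCAAT boxes, the letters bound by NF-Y. The one nearer the start is followed after 9 bases by CCACG. This pair forms an endoplasmic reticulum stress response element, a site class through which the unfolded protein response acts, at bases 52 to 34 before the start. No capitals stand in the PRDM1 promoter, as no match to these letters lies in the window.

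A BCL6 motif, TTCCTAGAA, lay just downstream of the BCL6 start, on the opposite strand, at bases 37 to 45 counted from the start as 1. The stretch below shows it in capitals, and the same letters also match the STAT motif.
BCL6 site: caagaagtTTCTAGGAAaggcc

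The search took 13 motifs on both strands of the 300 bases from 250 before to 50 after each start. The BCL6 motif occurred in 0.373% of the 35116 promoters of the table, the STAT motif in 7.66%, the cyclic AMP response element in 1.85% and the CCAAT box in 34.6%. The pair of CCAAT and CCACG, looked for only after the XBP1 sequence had been seen, occurred in 0.0769%. The GC box, GGGCGG, occurred in 45% and was found in the windows of BACH2 and XBP1. The letters searched for the other 3 factors occurred in none of the 4 windows, the stress response element at XBP1 being counted apart. They were GAAAGTGAA for PRDM1, found in 0.478% of all promoters, GCTGAGTCA for BACH2 with a small Maf protein, found in 0.561%, and TGACGTGG for XBP1, found in 0.729%. The remaining 5 motifs also had no match in these windows. The AP-1 motif TGACTCA occurred in 4.95% of all promoters and the IRF motif GAAANNGAA in 8.11%. For NF-kB the letters GGGANTTTC occurred in 1.28%, for ETS factors the letters CCGGAAGT in 4.14%, and for the TATA box the letters TATAAA in 11.5%. A match is a run of letters and not a measured binding site.

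The RefSeq promoters of the genes without a listed region at their hg19 start were the richer in CpG. The 300 bases held 45 CpG dinucleotides at BACH2 and 40 at XBP1, and 12 at BCL6 and 14 at PRDM1. The median over all promoters of the table was 14, with quartiles at 4 and 28. The GC content followed the same order, at 73.3% for BACH2, 68.7% for XBP1, 54.3% for PRDM1 and 53% for BCL6, beside a median of 58.7%. BACH2 and XBP1 thus lay above the upper quartile of both measures, and BCL6 and PRDM1 within the quartiles. These are 4 promoters, and no test was made of this contrast. XBP1 also lies on chromosome 22, where the list holds few regions for the length.

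**Figure D1:**
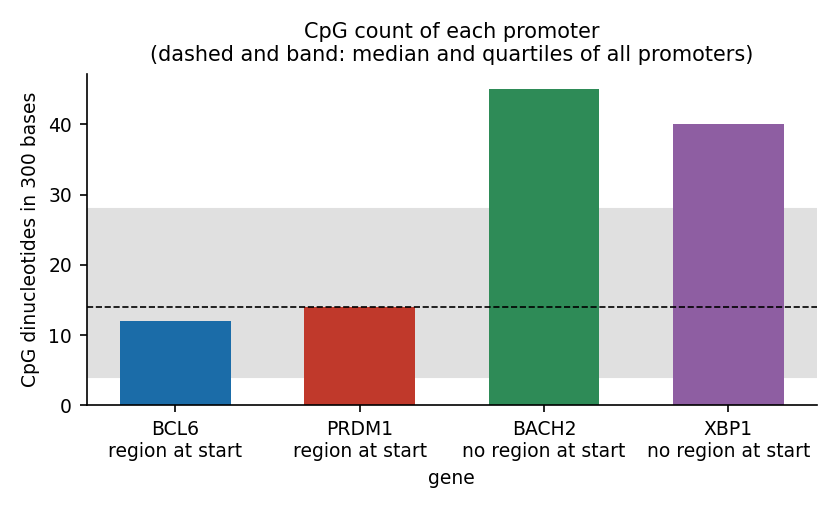
CpG dinucleotides in the 300 bases around the start (vertical axis) for each of the 4 genes (bars), with the median of all 35116 promoters as a dashed line and their quartiles as a band. The bars of BACH2 and XBP1, whose starts carry no listed region, stand at 45 and 40, above the band, and those of BCL6 and PRDM1 at 12 and 14, inside it.

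The start base lay in a region in 2 of the 4 genes, and the count was still 2 at 1 kb or 2 kb on either side. Across chromosomes 1 to 22 and X, 0.682% of bases lie in a listed region and 2.15% lie within 1 kb of one. Gene starts of the whole genome were not placed in hg19 here, so how often a gene start is covered is not known from these values. The BACH2 start lay 10.5 kb from its nearest region, a distance within which 13.5% of bases have a region. The XBP1 start lay 27.6 kb from its nearest region, within which 27.8% of bases have one. Chromosome 22 as a whole held few regions, 2.96 per Mb against 7.72 over chromosomes 1 to 22 and X. The lack of a region at the XBP1 start is thus not shown to be particular to this gene. A start outside the list is not shown to be closed, since depth is unknown and no region with a score under 541 was listed. The abbreviated name of the deposited list appears to say that it was filtered for mappability, blacklisted sequence and mitochondrial reads, which no label spells out. Whether such a filter took out a region at the BACH2 or XBP1 start was not tested, since the list does not show it.

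PRDM1, the plasma cell repressor, had the densest surroundings. Its locus (6q21, span chr6:106534195-106557814, plus strand) held 11 regions in 223.6 kb, or 49.2 per Mb, against 9.43 per Mb on chromosome 6. Consecutive windows of this length over chromosomes 1 to 22 and X held a median of 1 region, with quartiles at 0 and 3 and a highest count of 20. Regions covered 3.95% of the PRDM1 window and 0.846% of chromosome 6.

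The region on the PRDM1 start (chr6:106533846-106534600) was 755 bp wide, with a score of 1000, and ran from 349 bases upstream to 405 bases past the start. A second region (chr6:106532218-106532809) lay 1.04 kb farther upstream, 592 bp wide and also with a score of 1000. Within the gene, 3 more regions followed at midpoints 11.6, 12.48 and 15.9 kb past the start, 550, 674 and 777 bp wide, all with a score of 1000. The first pair of these (chr6:106545483-106546032 and chr6:106546341-106547014) was only 308 bases apart. The RefSeq table also lists a second start of PRDM1, which in GRCh38.p14 lies 12605 bases past the first. The second region of that pair ran from 12146 to 12819 bases past the start in hg19. These are distances within each build, and no position was carried from one build to the other.

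The region beyond the PRDM1 span (chr6:106562252-106562771) had the lowest score of the locus, 702, and the smallest width, 520 bp. Together with the 4 regions within the span and the region just upstream of the start it formed a cluster of 6. This cluster ran over 30.6 kb, joined at gaps of at most 12500 bases. Farther downstream, towards the autophagy gene ATG5, which is the next protein-coding gene in the table's order, lay 4 regions with a score of 1000. Their midpoints were 55.5, 77.9, 81.2 and 96.1 kb past the PRDM1 start. The region at 77.9 kb (chr6:106611192-106612954) was the widest of all 28, at 1763 bp, and wider than 94.5% of the list. The region at 81.2 kb (chr6:106615074-106615766) followed 2.12 kb after it.

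Upstream of PRDM1 lay fewer regions than within or downstream of it. Beyond the region next to the start, a stretch of 91.5 kb held none, and it ended at a region 93.7 kb upstream (chr6:106440158-106440741), 584 bp wide with a score of 1000. By the hg19 span used here, PRDM1 thus had 2 regions in the 100 kb upstream, 4 within the span and 5 in the 100 kb downstream. Per 100 kb these are 2, 16.9 and 5.

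BACH2, the repressor that holds PRDM1 back, had about as many regions as PRDM1 in its window, but over a far longer gene. Its locus (6q15, span chr6:90636247-91006627, minus strand) held 12 regions in 570.4 kb, or 21.04 per Mb, against 9.43 per Mb on the same chromosome. Consecutive windows of this length held a median of 3, with quartiles at 1 and 7 and a highest count of 28. Regions covered 1.49% of the BACH2 window. Within the span lay 7 regions, or 1.89 per 100 kb, with 1 in the 100 kb upstream and 4 in the 100 kb downstream.

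The 2 regions nearest the BACH2 start lay inside the gene, with midpoints 10.9 and 12.1 kb past the start and only 106 bases between them. The one nearer the start (chr6:90995329-90996133) was 805 bp wide with a score of 898. The other (chr6:90993897-90995222) was the widest of the locus, at 1326 bp, and the only one within the span with a score of 1000. Another (chr6:90960976-90961447) lay 45.4 kb past the start, with a width of 472 bp and a score of 840.

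After it, 147.5 kb of the BACH2 gene, or 39.8% of its span, held no listed region. In the middle of the gene came a group of 3, at 193.5, 212.9 and 215.8 kb past the start. These were 687, 332 and 643 bp wide, with scores of 788, 565 and 920. The region of 332 bp (chr6:90793592-90793923) was the narrowest of all 28, and only 0.809% of the list was narrower. A second empty stretch of 140 kb, 37.8% of the span, separated this group from a region near the end of the gene (chr6:90650143-90650523), 381 bp wide with a score of 647. Both long empty stretches lay within the gene, which had its regions in its first 45.7 kb, its middle and its end.

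Upstream of BACH2 a single region (chr6:91078615-91079275) lay 72.3 kb before the start, 661 bp wide with a score of 1000. Downstream, 2 regions of 574 and 442 bp, with scores of 856 and 775, lay 434.4 and 436.9 kb past the start. The last 2 (chr6:90544570-90545530 and chr6:90538649-90539884) lay 461.6 and 467.4 kb past the start, 961 and 1236 bp wide, both with a score of 1000. These were at the far edge of the window, where GJA10, a connexin gene, and CASP8AP2 are the next genes in the table's order. They joined with a region outside the window into a cluster of 3 over 17.1 kb. None of these 4 was assigned to a gene.

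BCL6, the germinal centre repressor, had 3 regions. Its locus (3q27.3, span chr3:187439165-187463513, minus strand) spanned 224.3 kb with its flanks and held 13.4 regions per Mb, against 8.86 per Mb on chromosome 3. Windows of this length held a median of 1, with quartiles at 0 and 3. The region on the BCL6 start (chr3:187463049-187463710) was 662 bp wide with a score of 795, and ran from 197 bases upstream to 464 bases past the start. It thus had a lower score than the region on the PRDM1 start, at 1000, and a smaller width than its 755 bp. The other 2 lay upstream, at 27.8 kb (chr3:187490991-187491649, 659 bp, score 738) and 57.4 kb (chr3:187520602-187521126, 525 bp, score 1000). LPP is the next protein-coding gene on this side in the table's order.

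Beyond the start, the BCL6 gene carried no listed region. The empty stretch took in 98.1% of the span and the whole downstream flank, 123.9 kb in all. The 3 regions stood 27.3 and 29 kb apart, and none had a neighbour within the joining distance.

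XBP1, the factor of the secretory programme, had the fewest. Its locus (22q12.1, span chr22:29190548-29196560, minus strand) held 2 regions in 206 kb, or 9.71 per Mb. Chromosome 22 held 2.96 per Mb, and chromosomes 1 to 22 and X together 7.72 per Mb. Windows of this length held a median of 1, with quartiles at 0 and 2, and 42.3% of them held none. Neither the 6.01 kb gene nor the 100 kb upstream of it held a region. Both regions lay downstream, at 27.9 kb past the start (chr22:29168435-29168935, 501 bp, score 566) and at 58.5 kb (chr22:29137484-29138715, 1232 bp, score 1000). In the table's order CCDC117 and then HSCB, a gene of iron-sulphur cluster assembly, follow XBP1 on this side. The regions were not assigned to either.

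**Figure D2:**
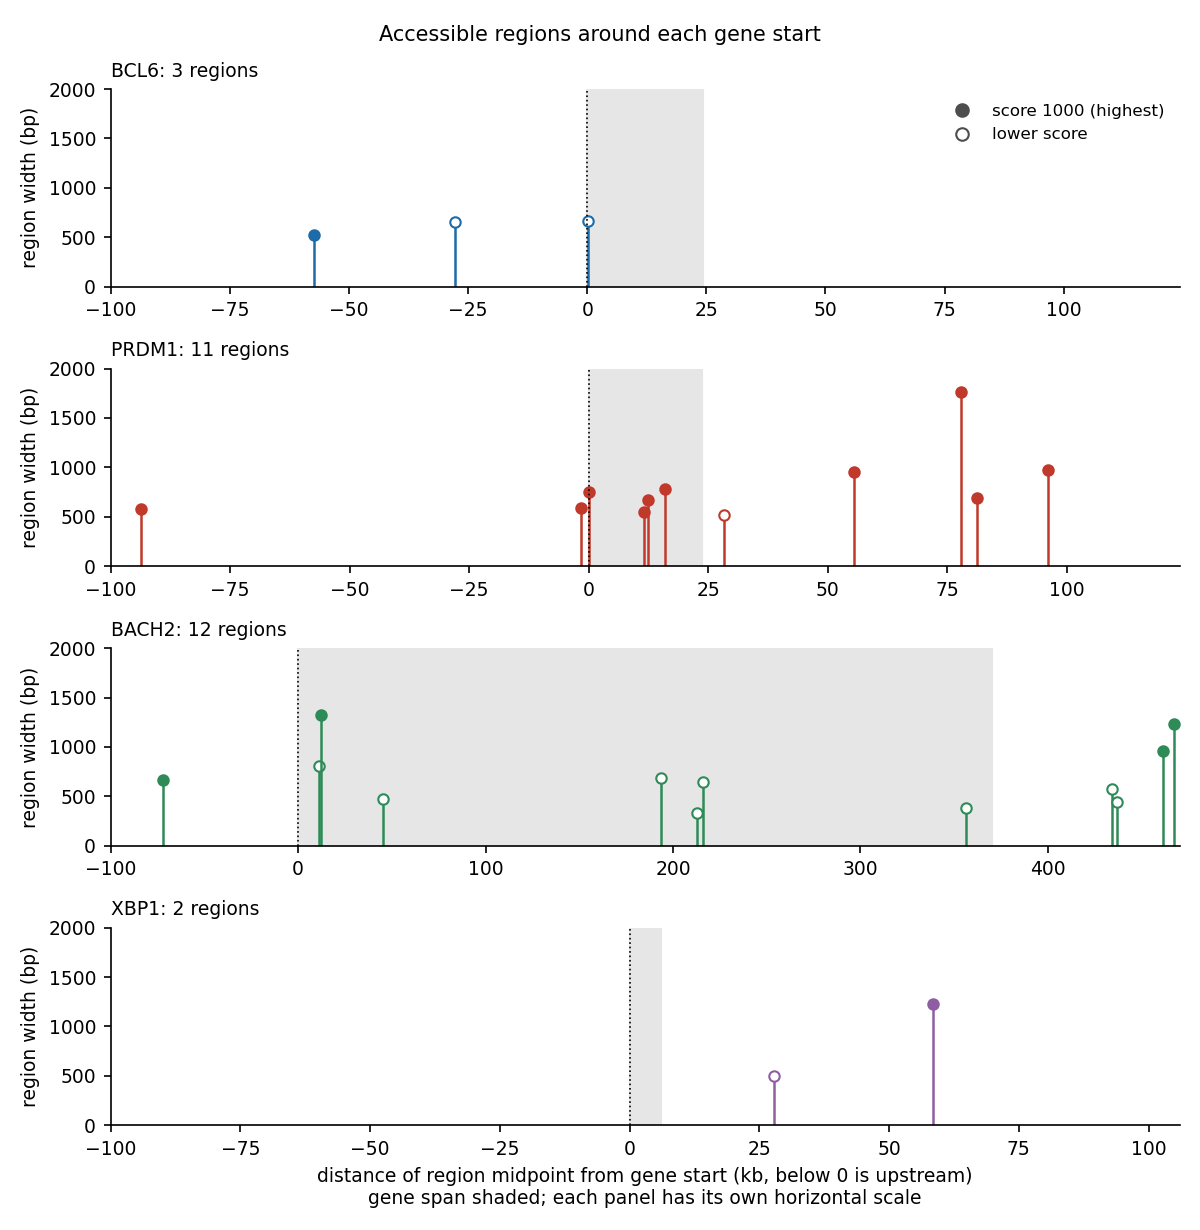
Distance of each region's midpoint from the gene start in kb (horizontal axis) and its width in bp (height of the line) for the 28 regions, with 1 panel per gene, its own horizontal scale, the gene span shaded, and filled points for a score of 1000. PRDM1 has 5 regions between 1.68 kb upstream and 15.9 kb past its start, BACH2 leaves 2 long empty stretches within its span, and XBP1 has none at its start or upstream.

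**Figure D3:**
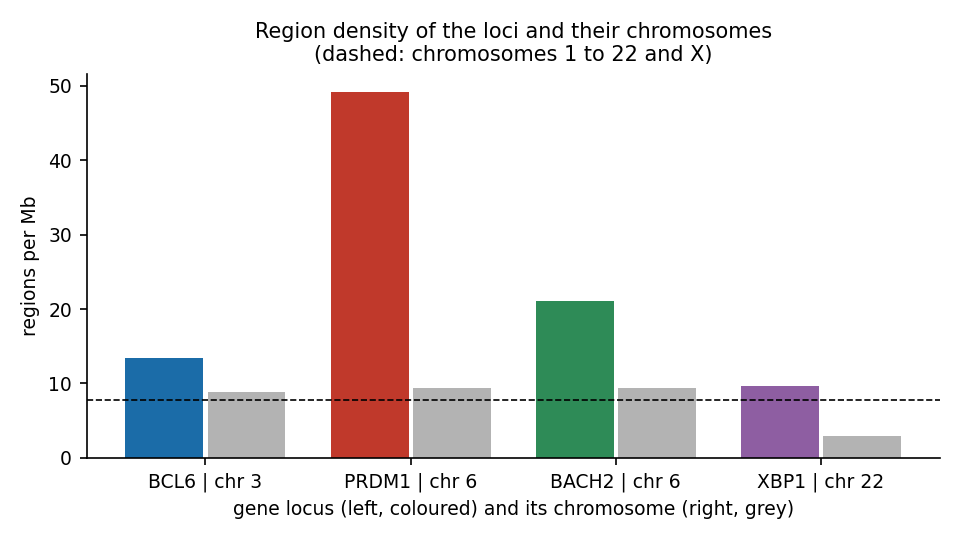
Regions per Mb in each locus (left, coloured bars) and on its whole chromosome (right, grey bars), with the value of chromosomes 1 to 22 and X as a dashed line at 7.72. All 4 loci stand above their chromosomes, with the smallest ratio at BCL6 (13.4 against 8.86) and the largest at PRDM1 (49.2 against 9.43).

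All 4 loci were denser than their chromosomes, by 5.22 times at PRDM1, 3.28 times at XBP1, 2.23 times at BACH2 and 1.51 times at BCL6. The ratio at XBP1 rests on 2 regions and on a chromosome with few, and at BCL6 on 3 regions. Chromosome lengths include unsequenced stretches, where no region can be listed, which lowers the chromosome values and raises these ratios. The loci are windows around genes, while the chromosomes were taken whole. Windows around other genes were not counted, so whether these loci are denser than those of other genes is not known. Together the 4 windows held 22.9 regions per Mb over 1.22 Mb. Counted by distance from the start alone, PRDM1 had 5 midpoints within 25 kb, BACH2 2, BCL6 1 and XBP1 0. Within 100 kb the counts were 11, 4, 3 and 2.

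**Figure D4:**
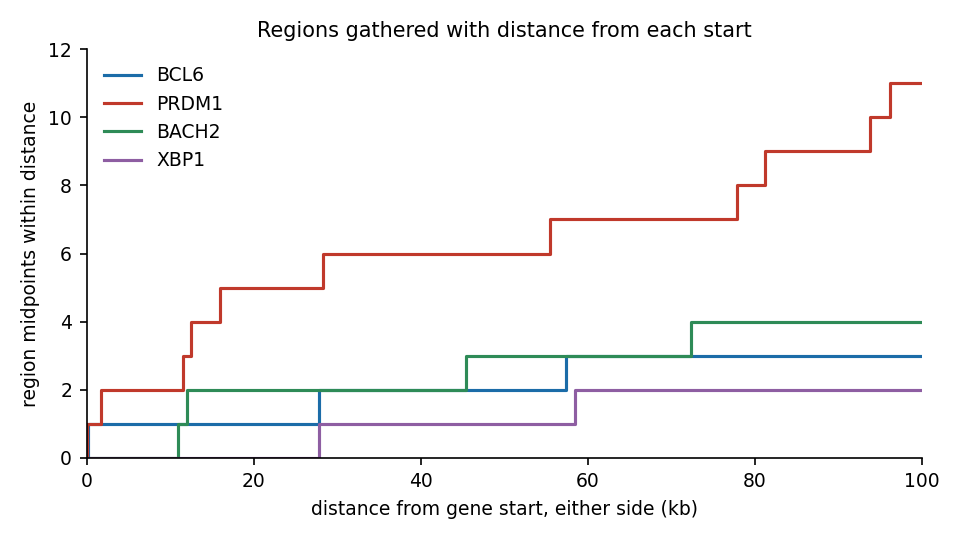
Number of region midpoints (vertical axis) within a given distance of the gene start on either side, in kb (horizontal axis), with 1 line per gene. The PRDM1 line reaches 11 at 100 kb, against 4 for BACH2, 3 for BCL6 and 2 for XBP1.

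The scores of the 28 regions as a group were close to those of the list, but they differed among the genes. The score is a whole number from 541 to 1000 whose scale the files do not name, and its form is that of a scaled reproducibility measure between replicates. It was at its highest value, 1000, in 16 of 28 regions (57.1%), beside 60.1% of the whole list, so the share is near that background. This depends on the flank, as the share was 41.2% with a flank of 50 kb and 62.2% with 200 kb. PRDM1 had 10 of 11 at this value, BACH2 4 of 12, XBP1 1 of 2 and BCL6 1 of 3. The 8 lower scores at BACH2 ran from 565 to 920, with a median of 814, beside a median of 731.5 for all lower scores of the list. By place, 5 of the 12 regions within the 4 genes had a score of 1000, 4 of the 5 upstream and 7 of the 11 downstream.

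As a group the 28 regions had a median width below that of the list but within its quartiles. Their median width was 661.5 bp (range 332 to 1763), against 756 bp over the list, whose quartiles were 547 and 1082 bp, and 9 of 28 were wider than the list's median, while 7 were under its lower quartile. An order-statistic interval for the median of the 28 (574 to 777 bp) served only as a tolerance for other settings, since regions of a locus are not replicates. Since width and score go together in this list, the widths are also given by score. At a score of 1000 the median was 766 bp for the 16 regions and 953 bp for the list, and at lower scores it was 547 bp for the 12 regions and 556 bp for the list. At a score of 1000, the 10 PRDM1 regions had a median of 724 bp (550 to 1763) and the 4 BACH2 regions one of 1098.5 bp (661 to 1326). PRDM1 thus combined many high scores with widths mostly under the list's median for that score. By place, the median width was 668 bp within the genes, 592 bp upstream and 957 bp downstream.

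**Figure D5:**
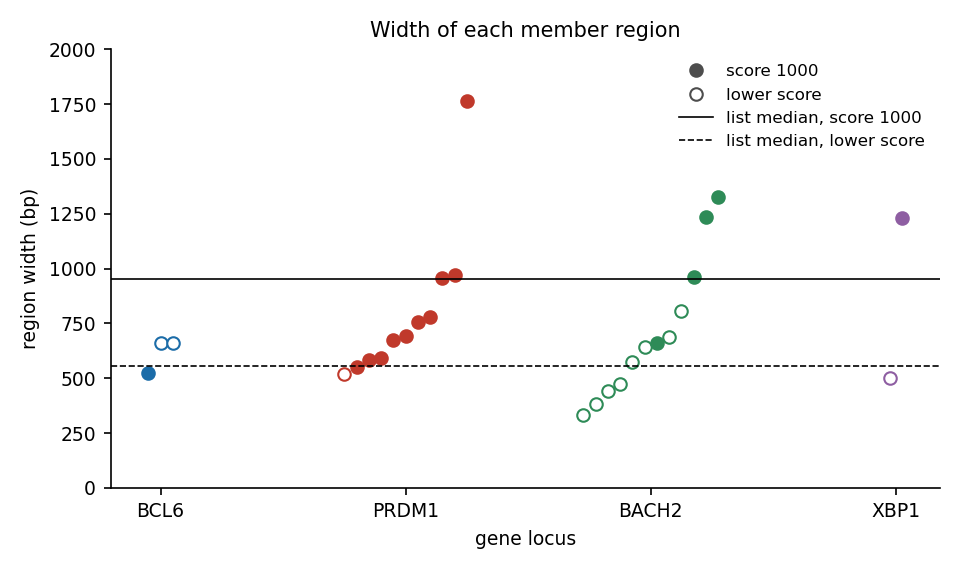
Width in bp (vertical axis) of each of the 28 regions by gene locus (horizontal axis, points spread sideways in order of width), with filled points for a score of 1000 and lines at the list's medians, 953 bp at that score and 556 bp below it. The 10 filled PRDM1 points lie mostly under the upper line, and the 8 open BACH2 points reach down to 332 bp.

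The regions stood close to each other at PRDM1 and BACH2 and apart at BCL6 and XBP1. The median gap to the nearest region was 2.12 kb at PRDM1, 3.56 kb at BACH2, 27.3 kb at BCL6 and 29.7 kb at XBP1, and 18.3 kb over the list. A neighbour within 12500 bases was present for 8 of 11 regions at PRDM1, 8 of 12 at BACH2 and none at the other genes. This makes 16 of 28 (57.1%), beside 42.2% of the list. At BACH2 these were mostly pairs, while at PRDM1 the 6 regions of the cluster ran across the gene start. In clusters of 3 or more stood 8 of the 28, beside 18.9% of the list.

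Just inside the limit of 100 kb lay regions 93.7 kb upstream of PRDM1 and 97 kb downstream of BACH2. Just outside lay regions 107.1 kb downstream of BACH2 (1424 bp, score 1000) and 114.7 kb upstream of it (788 bp, score 1000). For the other genes the first region outside lay farther away: 156.5 kb upstream of BCL6 and 352.7 kb downstream, and 193.3 kb upstream of PRDM1 and 215.7 kb downstream. Around XBP1 it lay 367 kb upstream and 875 kb downstream. Within each window the authors' region numbers ran on with 0 skipped, so no number is missing between the members of a locus. Regions removed before numbering would leave no gap in the numbers.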

How the data were processed

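ATAC-seq regions of 2 GM12878 cultures were taken from 1 list that the authors deposited for both. Per the submitters' processing notes, the build was hg19, and the named tools include the aligner BWA 0.7.13 and the peak caller MACS2 2.1.0, with Trim Galore 0.3.3, bedtools 2.24.0, CASAVA 1.8.4, SAMtools 0.1.19 and Picard 1.92. Their settings, and any shift of reads for the transposase, are not given in those notes or in a header. The deposited score per region carries no stated scale and was used only to describe regions within the list. On the scaled form of the irreproducible discovery rate, a rate of 0.05 gives a score of 540, just under the lowest score of 541. Starts are printed 1-based. Gene spans came from the rule that defined the members.

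Chromosome lengths and bands of hg19 came from circlize 0.4.16. Regions were assigned by midpoint with a flank of 100 kb, counted per Mb, and joined at gaps of at most 12500 bases. The gene and promoter tables are of GRCh38.p14 and gave only names, order, lengths and promoter sequence. No genome of hg19 was used, so no sequence of a region is printed, and other genes of the pathway were not placed. Calculations used Python 3.11.15, numpy 2.4.6, pandas 2.3.3, scipy 1.17.1 and matplotlib 3.10.9, and were tested on simulated data. The regions described are those at a start, the nearest to it, the widest, those at the limit and the other members. Members, motifs and lists were chosen with earlier results of these data known. Nothing was tested over samples, and values per culture were not analysed here.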

Additional observations from a re-analysis of the deposited data

How the results depend on the processing

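Of 35 other settings over 13 results, 21 left the value the same and 14 moved it. A count was the same within 1.5 times, the share at the highest score within its exact binomial interval (37.2% to 75.5%) and the median width within an order-statistic interval (574 to 777 bp). Both intervals treat regions as independent and served only as tolerances. With a flank of 50 kb, the members numbered 17 in all, 7 at PRDM1, 7 at BACH2 and 1 at XBP1. With a flank of 200 kb, BCL6 had 6 and the regions upstream of the genes numbered 13. At that flank 12 lay downstream, so upstream held more, where the main setting gave 5 upstream and 11 downstream. With regions at the highest score only, there were 16 in all, 1 at BCL6, 4 at BACH2 and 1 at XBP1, and 1 gene, PRDM1, kept a region at its start. Clusters of 3 or more that hold a member numbered 2, with 1 at a joining gap of 5 kb and 4 at 25 kb. Exact motif matches joined 6 of 52 pairs of motif and promoter, and 21 with 1 mismatch. These moves follow from the settings themselves, which take in more or fewer regions or letters. No paired analysis was possible because both cultures share 1 group and 1 list. For the same reason neither culture could be left out. Depth is unknown, so a start or stretch without a region is not shown to be closed.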

Other observations

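The RefSeq table lists a second start within the gene for BCL6, PRDM1 and XBP1, in GRCh38.p14 at 8967, 12605 and 492 bases past the first. An AP-1 motif, present in 4.95% of all promoters, lay in the window of the second start of BCL6, at bases 77 to 71 before it, and of PRDM1, at bases 42 to 36 before it. No AP-1 motif lay in the window of the second XBP1 start. Neither the BCL6, PRDM1, XBP1 nor BACH2 motif occurred in these 3 windows.

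The table of GRCh38.p14 gives PRDM1 a length of 117.2 kb, 93.6 kb more than the 23.6 kb span in hg19 used here, and lists predicted transcripts among its entries. The farthest upstream of the 11 PRDM1 regions had its midpoint 93.7 kb before the start. In that table the first promoter start of PRDM1 lies 23603 bases from the gene's end, so the extra length lies upstream of it. The extra length was not placed in hg19, so whether that region lies at the start of such a transcript was not tested. By the longer annotation, regions counted above as upstream of PRDM1 could lie within the gene.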
